A study of Mus musculus with 11 samples.

Results

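Sorted tdTneg cells of back skin epidermis preparations that carry SCA-1 (tdTneg SCA-1+) were compared with sorted tdTneg cells of the bulge phenotype that lack it (tdTneg bulge). The comparison used 5 of the 11 RNA libraries of the series, chosen by their titles: 2 of CD49f+CD34+SCA-1+tdTneg cells and 3 of CD49f+CD34+SCA-1neg tdTneg cells. All libraries were made from cells sorted out of preparations of the epidermis of back skin (EBS) of adult male CD4Cre R26-tdT mice, and markers of endothelium, which is not part of the epidermis, were high in both SCA-1+ libraries (values given with the markers of other cells). In this line Cre is driven by regulatory sequences of *Cd4*, and a cell in which Cre has acted, with its descendants, carries the red reporter tdTomato (tdT). The tdTneg cells show no reporter, and since both groups are tdTneg the comparison is between populations and not between reporter states. Each library was a pool of cells from 2 mice, aged 29 weeks for replicate 1 and 32 weeks for replicates 2 and 3 of every group. The remaining libraries, 3 of tdT+ SCA-1+ and 3 of tdT+ bulge cells of the same line, served to estimate the spread and as the most similar comparison.

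The bulge is the part of the resting hair follicle that houses its stem cells, which are marked by CD34 and keratin 15 and rebuild the lower follicle in each hair cycle. The interfollicular epidermis (IFE) is renewed from its own basal layer (BL-IFE), whose cells, like those of the infundibulum (INF) at the mouth of the follicle, carry SCA-1. Basal cells of both compartments rest on the basement membrane through the integrin CD49f, and cells that leave the basal layer switch from keratins 5 and 14 to keratins 1 and 10. CD34 and SCA-1 are also present on endothelial cells, which line blood vessels in the dermis below.

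The bulge libraries held 46542177, 39364902 and 40709279 counts on Ensembl genes, and the SCA-1+ libraries 30078680 and 23666873. The 1 row outside the Ensembl genes stood at 2.54 to 4.89 CPM (counts scaled to the total of the library) in these 5 libraries, against 133 to 307 CPM in 5 of the 6 tdT+ libraries. The files do not say what this row is. In the library labelled tdT+ bulge replicate 2 it stood at 2.05 CPM, unlike the other tdT+ libraries and near the tdTneg ones, and that library entered only the spread and the tdT+ comparison, which is given with and without it. Across genes, log2 CPM of tdTneg bulge replicates 1 and 3 correlated at 0.99, whereas replicate 2 correlated with them at 0.90 and stood apart, with 34233 genes detected against 28033 and 26607. Replicate 2 correlated at 0.93 with tdT+ bulge replicates 1 and 2. The library labelled tdT+ bulge replicate 3 correlated at 0.94 with tdTneg bulge replicates 1 and 3, and at 0.85 and 0.87 with its own group. The bulge libraries thus differed in a way that crosses the tdT label, which enters the bulge values, the spread and the tdT+ comparison. The SCA-1+ libraries correlated at 0.96. Values below are CPM normalized by the trimmed mean of M-values (TMM), differences are log2 fold changes of SCA-1+ minus bulge with their standard error (SE), and adjusted p-values are Benjamini-Hochberg values from the quasi-likelihood test of edgeR over 20307 genes. A gene was called where its adjusted p was under 0.05 and its log2 fold change lay beyond 1 in either direction.

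The genes of the sorted proteins were measured first. *Ly6a* (ENSMUSG00000075602, chromosome 15, 74994877 to 74998031 of GRCm38), which encodes SCA-1, had 5.74, 2.46 and 2.9 CPM in the bulge and 186 and 172 CPM in the SCA-1+ libraries. The groups lay far apart and *Ly6a* was higher in SCA-1+ cells (log2 fold change 5.59, SE 0.69, adjusted p = 0.00511). *Cd34* (ENSMUSG00000016494, chromosome 1, 194938819 to 194961279) had 864, 638 and 1130 CPM in the bulge and 319.6 and 383 CPM in the SCA-1+ libraries, so that its RNA was present in both CD34+ sorts and lower in the second (log2 fold change -1.32, SE 0.33, adjusted p = 0.0455). *Cd34* was not called in a fit blocked on the replicate number (adjusted p = 0.0771, range over all alternatives 0.00113 to 0.346). *Itga6* (ENSMUSG00000027111, chromosome 2, 71745616 to 71858416), which encodes CD49f, had 615, 512 and 548 CPM and 1021 and 932 CPM, higher in both SCA-1+ libraries without passing the thresholds (log2 fold change 0.81, SE 0.21, adjusted p = 0.0505). Since the proteins of *Ly6a* and *Cd34* defined the sort, these values check the labels and are no result between the groups.

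**Figure D1:**
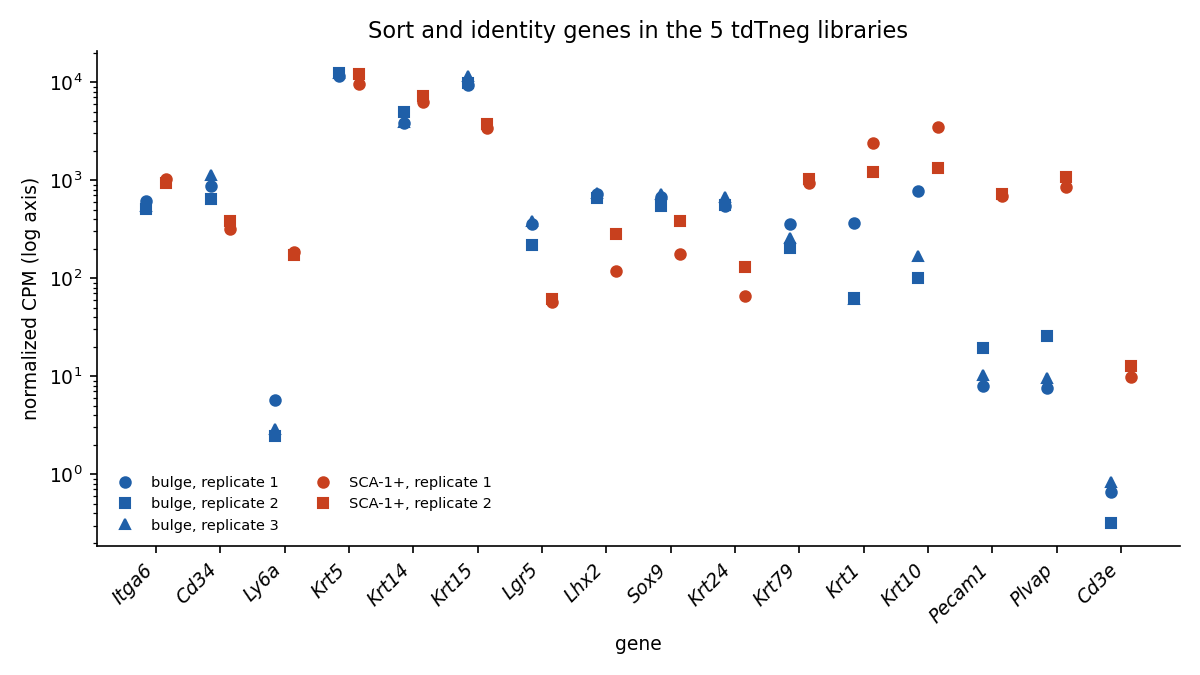
Normalized CPM (log axis) of the sort genes, follicle and IFE keratins and transcription factors, an upper follicle keratin, 2 endothelial genes and a T cell gene, with 1 point per library. The bulge libraries (blue) lie above the SCA-1+ libraries (red) for *Krt15*, *Lgr5*, *Lhx2*, *Sox9* and *Krt24*, and below them for *Ly6a*, *Krt79*, *Krt1*, *Krt10*, *Pecam1*, *Plvap* and *Cd3e*.

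Of 20307 genes tested, 963 (4.74%) were called between the groups, 668 higher (3.29%) and 295 lower (1.45%) in SCA-1+ cells. An unadjusted p under 0.05 was reached by 2165 genes that were higher and 2121 that were lower, and the median over all genes was -0.13. The calls were unlike in size: those higher had a median log2 fold change of 2.80, with 303 over 3 and 63 over 5, and those lower a median of -1.52, with 5 under -3. All 963 called genes were without overlap between the libraries of the groups, which was also the case for 19.9% (SCA-1+ above) and 26.4% (SCA-1+ below) of all genes tested. Among the called genes, *Trgj1* and *Gm17745* had 0 counts in all bulge libraries and were at least 7.56-fold and 18.7-fold higher, and *Nlgn1* had 0 counts in both SCA-1+ libraries and was at least 13.9-fold lower, each against a floor of 3 counts per library. The number of calls changed with the omission of single libraries. It was 55 without SCA-1+ replicate 1, 216 without bulge replicate 3, 420 without SCA-1+ replicate 2, 510 without bulge replicate 1 and 828 without bulge replicate 2, the library that stood apart. With 1 SCA-1+ library left out, the other is assumed to vary like the libraries of the other groups. Leaving out a library also removes replication, so that a lost call does not show that the omitted library carried the difference. On omission of any 1 library, 0 of the 136 called genes named here changed direction. Of the 136 called genes named by the rules used here, 8 were also called without SCA-1+ replicate 1: *Ahr*, *Bhlhe40*, *Cd3e*, *Coro1a*, *Klk7*, *Ly6a*, *Nrp2* and *Sprr1a*.

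Of 14 transcription factors of a bulge list 3 were called lower in SCA-1+ cells, and all 14 had negative log2 fold changes (median -0.89). *Lhx2*, a LIM homeobox factor required to keep bulge cells quiescent, had 715, 662 and 743 CPM in the bulge and 119.5 and 280.1 CPM in the SCA-1+ libraries (log2 fold change -1.82, SE 0.40, adjusted p = 0.0279). *Tbx1* had 548, 439 and 541 CPM and 68 and 189.6 CPM (log2 fold change -1.98, SE 0.39, adjusted p = 0.0199). For both genes SCA-1+ replicate 1 lay further below the bulge libraries than replicate 2. *Hopx*, an atypical homeobox gene of quiescent stem cells, went from 126, 141 and 194 CPM to 52.5 and 63 CPM (log2 fold change -1.41, SE 0.25, adjusted p = 0.0143). *Sox9*, a factor that specifies follicle stem cells, had 668, 551 and 730.3 CPM and 176 and 386 CPM, which did not pass (log2 fold change -1.21, SE 0.43, adjusted p = 0.143), and *Nfatc1* was at -0.42, adjusted p = 0.637. Without SCA-1+ replicate 1 or bulge replicate 3, 0 factors of the list were called, and without bulge replicate 1 there was 1.

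Of 14 genes for the surface and matrix of bulge cells that passed the filter on low counts (*Tnmd* did not), 13 were negative (median -1.58) and 6 were called lower. One of the calls was *Cd34*, which defined the sort and was lost with the replicate block. The other 5 are not sort genes themselves, but the sort was made to part bulge from other cells, so that their calls are not independent of it. *Krt15* (chromosome 11, 100131758 to 100135928), the keratin used to mark the bulge, had 9280, 9868 and 11550 CPM in the bulge and 3425 and 3743 CPM in the SCA-1+ libraries (log2 fold change -1.51, SE 0.31, adjusted p = 0.0236). *Lgr5*, the R-spondin receptor of cycling stem cells, had 359, 217 and 387 CPM and 56.6 and 61.6 CPM (log2 fold change -2.44, SE 0.45, adjusted p = 0.0157). Both SCA-1+ libraries thus kept *Krt15* and *Lgr5* at levels below every bulge library and above 0. *Npnt*, which encodes the basement membrane protein nephronectin, fell from 234, 277 and 286 CPM to 48.7 and 76.8 CPM (log2 fold change -2.08, SE 0.32, adjusted p = 0.00933). *Scx*, a tendon transcription factor that is also in this list, fell from 67.3, 88.1 and 98 CPM to 8.7 and 19 CPM (log2 fold change -2.61, SE 0.41, adjusted p = 0.00994), and *Ltbp2*, which binds microfibrils, was at -2.52, adjusted p = 0.011. *Cd200* did not move past its error (-0.11, adjusted p = 0.899). The member with a positive value was *Fbn1* (3.19, adjusted p = 0.134), which encodes fibrillin 1. Without SCA-1+ replicate 1, 0 members were called, and without SCA-1+ replicate 2, bulge replicate 3 or bulge replicate 1 there were 2, 3 and 4.

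Among the keratins of the inner bulge and companion layer, *Krt24* fell from 549, 557 and 678 CPM to 65.8 and 132 CPM (log2 fold change -2.59, SE 0.39, adjusted p = 0.00859), while *Krt16*, a keratin of the companion layer and of stressed epidermis, rose from 124, 128 and 77.1 CPM to 503 and 513 CPM (log2 fold change 2.21, SE 0.38, adjusted p = 0.0121). The 5 other members did not pass. Of 10 hair germ genes, *Id1* and *Id3*, targets of BMP signaling, and the hair homeobox gene *Hoxc13* were lower, with log2 fold changes of -1.69, -1.52 and -1.53 (adjusted p = 0.042, 0.0428 and 0.0443), and the median was -0.75. *Hoxc13* was not called with the replicate block (adjusted p = 0.0899, range over all alternatives 0.00118 to 0.372). *Id1*, *Id3* and *Hoxc13* all lost their calls when any 1 of the tdTneg bulge libraries was left out. The 14 sebaceous gland genes had a median of -1.46 with 0 called by edgeR, 4 lower at an unadjusted p under 0.05, 2 lower by DESeq2 and 1 lower by voom. *Fads6*, the member with the lowest p, had 11.8, 49.6 and 9.22 CPM in the bulge libraries, replicate 2 being high, and 1.61 and 3.18 CPM in the SCA-1+ libraries (log2 fold change -3.30, SE 1.04, adjusted p = 0.102).

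Of 15 genes of the suprabasal IFE 8 were called higher in SCA-1+ cells, and 13 were positive (median 2.33). *Krt1* (chromosome 15, 101845426 to 101850794) had 369, 63.1 and 61.8 CPM in the bulge and 2396 and 1207 CPM in the SCA-1+ libraries (log2 fold change 3.45, SE 0.82, adjusted p = 0.0393). *Krt10*, its partner, had 774, 101 and 169.9 CPM and 3511 and 1334 CPM and did not pass (log2 fold change 2.80, SE 0.81, adjusted p = 0.0778). In both keratins bulge replicate 1 was the highest bulge library and SCA-1+ replicate 1 the highest of all. *Ptgs1*, the cyclooxygenase COX-1, rose from 24.6, 11.2 and 7.88 CPM to 251 and 166 CPM (log2 fold change 3.84, SE 0.54, adjusted p = 0.00694), and *Grhl3*, a transcription factor of barrier formation, from 10.7, 3.44 and 4.22 CPM to 53.9 and 37.8 CPM (log2 fold change 2.90, SE 0.41, adjusted p = 0.00694). The calmodulin-like genes *Calm4* and *Calm5* and the metallothionein *Mt4* had log2 fold changes of 2.94, 3.21 and 2.33 (adjusted p = 0.0174, 0.0361 and 0.0178). *Calm5* was not called with the replicate block (adjusted p = 0.0584, range over all alternatives 3.33e-05 to 0.403). Without SCA-1+ replicate 1, 0 of the 15 were called and the median was 1.30, while without bulge replicate 3, in the fit of the 5 tdTneg libraries alone and without bulge replicate 2 there were 2, 4 and 5 calls.

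Of 20 granular and cornified genes, 19 were positive (median 2.20) and 4 were called. *Sprr1a*, a cornified envelope protein, had 69.2, 49 and 33.6 CPM in the bulge and 307 and 277 CPM in the SCA-1+ libraries (log2 fold change 2.53, SE 0.29, adjusted p = 0.00471). *Klk7*, a protease that sheds corneocytes, had 21.3, 19.5 and 21.6 CPM and 82.7 and 96 CPM (log2 fold change 2.10, SE 0.23, adjusted p = 0.00409). Values in the SCA-1+ libraries were close for these genes, whereas for the late genes *Casp14*, with 39.9 and 20.6 CPM, and *Asprv1*, with 118 and 54.7 CPM, replicate 1 was the higher. Their log2 fold changes were 2.46 and 2.31 (adjusted p = 0.00985 and 0.0146). *Lor*, which encodes loricrin, had 41.2, 2.11 and 2.02 CPM and 191 and 11.1 CPM, so that its difference (log2 fold change 2.74, SE 1.48, adjusted p = 0.325) rested on SCA-1+ replicate 1: without that library it was -0.46. The desmosomal cadherins of upper layers moved with these genes, *Dsg1a* at 2.77, adjusted p = 0.0246, *Dsc1* at 2.98, adjusted p = 0.0294 and *Dsg1b* at 1.73, adjusted p = 0.0198. The plaque protein gene *Pkp1* was also higher (1.02, adjusted p = 0.0136), and the other 14 of 18 junction genes were not called. Without bulge replicate 3, *Dsg1a*, *Dsc1*, *Dsg1b* and *Pkp1* were not called. *Dsg1a* and *Dsc1* were not called in the fit of the 5 tdTneg libraries alone either.

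Of 12 basal IFE genes, *Ly6a*, whose protein defined the sort, was the only one called. *Krt5* had 11590, 12280 and 12320 CPM in the bulge and 9608 and 11990 CPM in the SCA-1+ libraries, which overlapped (log2 fold change -0.16, SE 0.27, adjusted p = 0.796). *Krt14* had 3856, 5010 and 3884 CPM and 6293 and 7203 CPM, higher in both SCA-1+ libraries without passing the thresholds (log2 fold change 0.67, SE 0.28, adjusted p = 0.206). These are the keratins of all basal cells, and the 95% intervals of the differences had a median half-width of 1.05 over all genes, so that small differences were not detectable. The median of the basal genes was 0.36. Among the 21 genes of hemidesmosomes and the basement membrane, 0 were called by edgeR and 5 higher and 1 lower had an unadjusted p under 0.05, *Hspg2*, which encodes perlecan, having the lowest p (log2 fold change 0.91, adjusted p = 0.0365), short of the fold threshold. DESeq2 called 0 of them and voom with library weights 3. Of 22 integrin and focal adhesion genes *Itga5*, a chain of the fibronectin receptor, was called, with 59.3, 62.7 and 55.9 CPM and 156 and 208 CPM (log2 fold change 1.61, SE 0.26, adjusted p = 0.00994). Of all genes tested, 3.29% were called higher.

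Of 12 genes of the upper follicle, 10 were positive (median 1.17) and 4 were called higher. *Krt79*, a keratin of the infundibulum and sebaceous duct, had 358, 203 and 257 CPM in the bulge and 936 and 1016 CPM in the SCA-1+ libraries (log2 fold change 1.84, SE 0.34, adjusted p = 0.0153). *Cst6*, the protease inhibitor cystatin M/E, had 80.3, 53 and 82.7 CPM and 301 and 224 CPM (log2 fold change 1.86, SE 0.34, adjusted p = 0.0146), and *Klk10* rose by 2.09 (adjusted p = 0.013); *Sprr1a* is in this list as well. *Lrig1*, a marker of the junctional zone, had 267, 291 and 244 CPM and 195 and 246 CPM and did not differ beyond its error (log2 fold change -0.28, SE 0.28, adjusted p = 0.62). In tdT+ cells *Krt79* was at 0.29 (adjusted p = 0.552) and *Cst6* at -0.20 (adjusted p = 0.699), neither called. The difference between the comparisons was not called for *Krt79* (adjusted p = 0.192) or *Cst6* (adjusted p = 0.0911), and without the library labelled tdT+ bulge replicate 2 it was called for *Cst6* (2.36, adjusted p = 0.0253). Without SCA-1+ replicate 1 or bulge replicate 3, 1 of the 4 genes was called, and without SCA-1+ replicate 2 there were 2.

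Of 14 transcription factors of the epidermal lineage 5 were called higher, and 13 were positive (median 1.27). *Ahr*, the aryl hydrocarbon receptor, had 34.9, 36.5 and 29.1 CPM in the bulge and 173 and 126 CPM in the SCA-1+ libraries (log2 fold change 2.16, SE 0.21, adjusted p = 0.00315). *Klf5* had 73.8, 44.8 and 55.7 CPM and 272 and 228 CPM (log2 fold change 2.10, SE 0.27, adjusted p = 0.0052), and *Bhlhe40* had 133, 118 and 96.7 CPM and 462 and 424 CPM (log2 fold change 1.94, SE 0.21, adjusted p = 0.00471). *Zfp750* and *Tfap2c*, which act in epidermal differentiation and commitment, had log2 fold changes of 2.44 and 1.66 (adjusted p = 0.00694 and 0.00681). The list had 2 calls without SCA-1+ replicate 1. All 5 were also called higher in the tdT+ comparison, with log2 fold changes from 1.43 (*Ahr*) to 2.03 (*Tfap2c*), and also without the library labelled tdT+ bulge replicate 2.

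**Figure D2:**
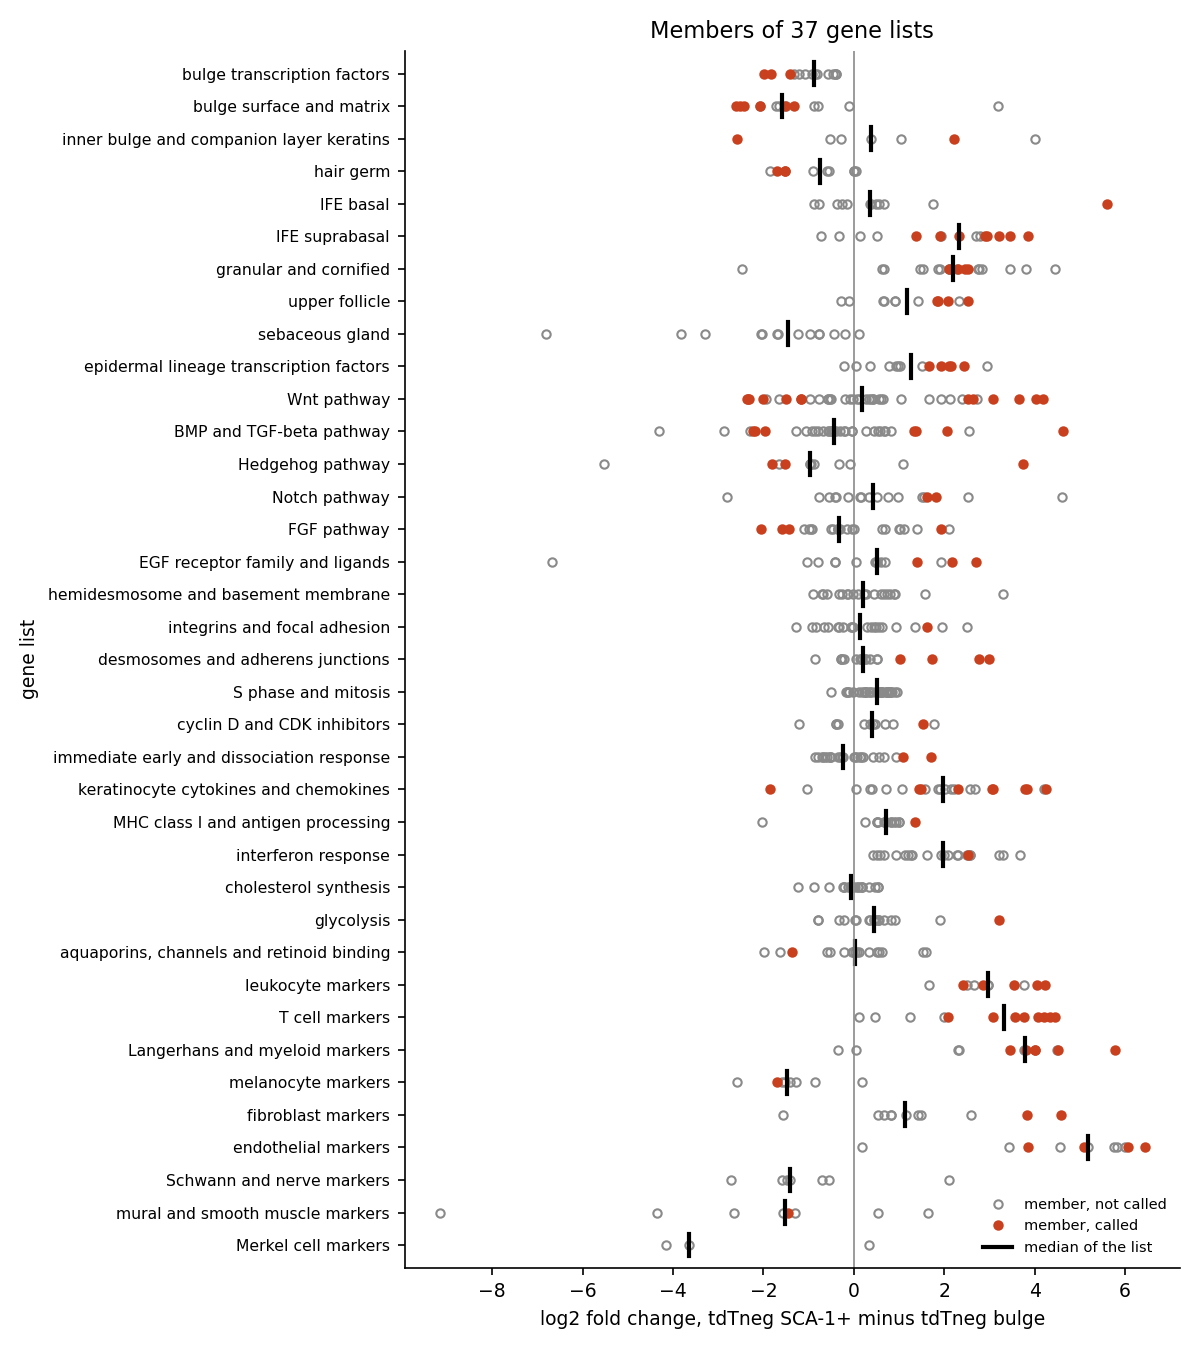
Log2 fold change of each tested member (points, filled where called) and median (bars) of 37 gene lists, tdTneg SCA-1+ minus tdTneg bulge. The lists of bulge transcription factors and of bulge surface and matrix genes lie left of 0 (medians -0.89 and -1.58), the inner bulge and companion layer keratins right of it (0.38), the suprabasal and granular lists further right (2.33 and 2.20), and the endothelial list furthest right (5.18).

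The promoters of the called suprabasal and granular genes were searched for TGANTCA, the letters bound by AP-1 (which read the same on both strands, and overlap no other motif searched), in the 250 bases before the start of each gene in RefSeq on GRCm38.p6. Of these 12 genes, 10 had a window and 2 held the letters, against 2113 of 27025 genes (7.82%) and 0 of 6 called bulge genes with a window. Both are printed 5′ to 3′, with the letters in capitals, because they belong to a suprabasal and a cornified gene that rose together. The *Krtdap* window is chr7:30787655-30787904 on the plus strand and the *Sprr1a* window chr3:92485882-92486131 on the minus strand.
Krtdap: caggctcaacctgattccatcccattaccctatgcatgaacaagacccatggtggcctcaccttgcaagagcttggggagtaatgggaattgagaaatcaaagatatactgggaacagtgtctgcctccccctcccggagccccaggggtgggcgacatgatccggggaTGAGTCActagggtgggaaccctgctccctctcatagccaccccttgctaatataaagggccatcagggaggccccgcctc
Sprr1a: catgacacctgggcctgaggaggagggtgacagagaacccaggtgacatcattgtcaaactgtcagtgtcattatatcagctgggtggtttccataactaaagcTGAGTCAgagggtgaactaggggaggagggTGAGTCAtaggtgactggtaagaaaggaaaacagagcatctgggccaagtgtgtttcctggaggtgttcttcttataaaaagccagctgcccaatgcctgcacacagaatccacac
*Krtdap*, which encodes a secreted peptide of differentiating keratinocytes, had 104, 43.4 and 65.9 CPM in the bulge and 359 and 176 CPM in the SCA-1+ libraries (log2 fold change 1.91, SE 0.39, adjusted p = 0.0229). A match of letters is a description and was not tested as a binding site.

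In the Wnt pathway calls went in both directions, with 6 of 40 genes higher and 7 lower (median 0.18). Ligands *Wnt3*, *Wnt3a* and *Wnt16* and the Wnt enhancer *Rspo3* were higher. *Wnt3* had 6.9, 1.4 and 2.34 CPM in the bulge and 82.7 and 46.5 CPM in the SCA-1+ libraries (log2 fold change 4.18, SE 0.78, adjusted p = 0.016), and the others had log2 fold changes of 3.08, 3.65 and 4.03. The ligand *Wnt5b* was lower (-2.00, adjusted p = 0.0474). The secreted inhibitors *Sfrp1* and *Dkk3* were lower. *Sfrp1* fell from 1494, 1906 and 1673 CPM to 212 and 469.6 CPM (log2 fold change -2.31, SE 0.38, adjusted p = 0.011) and *Dkk3* from 554, 525 and 671 CPM to 70.2 and 157 CPM (log2 fold change -2.36, SE 0.37, adjusted p = 0.00994). Among the Frizzled receptors, *Fzd10* (2.53, adjusted p = 0.0139) and *Fzd4* (2.64, adjusted p = 0.0104) were higher, and *Fzd2*, *Fzd8*, *Fzd3* and *Fzd1* were lower, the last of them (-1.17, adjusted p = 0.0486) being outside the rule for named genes and given after its values were seen. *Fzd2* fell from 419, 330.4 and 370.5 CPM to 54.1 and 92.6 CPM (log2 fold change -2.35, SE 0.32, adjusted p = 0.00681). The feedback target *Axin2* was at 0.06, adjusted p = 0.927. With the replicate block 3 genes were called higher and 4 lower. *Wnt3a*, *Wnt16*, *Rspo3*, *Wnt5b*, *Fzd3* and *Fzd1* were not called in it, with adjusted p-values of 0.0518 to 0.0787 against ranges over all alternatives of 1.11e-05 to 0.304 for *Wnt3a* and 0.00137 to 0.39 for *Fzd1*. Without SCA-1+ replicate 1, 0 genes were called, and without bulge replicate 3 there were 0 higher and 3 lower.

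In the BMP and TGF-beta pathway 4 of 37 genes were higher and 3 lower. *Bmp4* rose from 3.72, 2.01 and 1.22 CPM to 75.3 and 39.2 CPM (log2 fold change 4.62, SE 0.82, adjusted p = 0.014). The BMP antagonist *Grem1* fell from 529.9, 347 and 712 CPM to 80.4 and 152 CPM (log2 fold change -2.19, SE 0.48, adjusted p = 0.0293), and so did the targets *Id2* (-1.96, adjusted p = 0.0121) and *Id4* (-2.23, adjusted p = 0.0183), as did *Id1* and *Id3* above. The ligand was thus higher while its antagonist and 4 target genes were lower. On the TGF-beta side *Smad3*, *Tgfbr2* and *Tgfbr3* were higher, with log2 fold changes of 1.38, 1.32 and 2.05 (adjusted p = 0.0118, 0.0146 and 0.0161). Of the pathway, 0 genes were called without SCA-1+ replicate 1, and without SCA-1+ replicate 2 or bulge replicate 3 there were 2 and 1.

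In the Hedgehog pathway the coreceptor *Boc* fell from 275, 216 and 311 CPM to 79.3 and 106 CPM (log2 fold change -1.53, SE 0.30, adjusted p = 0.0206) and the transcription factor *Gli2* from 124, 89.6 and 124 CPM to 23.3 and 41 CPM (log2 fold change -1.81, SE 0.41, adjusted p = 0.0333), with a median of -0.96 over 12 genes. *Dhh*, a ligand, rose from 0.785, 1.14 and 0.488 CPM to 8.99 and 12.6 CPM (log2 fold change 3.74, SE 0.92, adjusted p = 0.0428). With the replicate block neither *Gli2* (adjusted p = 0.059, range over all alternatives 0.000384 to 0.3) nor *Dhh* (adjusted p = 0.0577, range 0.000111 to 0.18) was called. In the FGF pathway, 3 of 24 genes were lower and 1 was higher. The ligand *Fgf1* had 138, 108 and 137 CPM and 25.4 and 36.6 CPM (log2 fold change -2.04, SE 0.32, adjusted p = 0.00933) and the receptor *Fgfr1* 960.1, 642 and 878 CPM and 266 and 346 CPM (log2 fold change -1.43, SE 0.29, adjusted p = 0.0221). *Fgfrl1*, a receptor without a kinase domain, was lower (-1.60, adjusted p = 0.0256) and *Fgfbp1*, which releases FGFs from the matrix, was higher (1.92, adjusted p = 0.0153). Of 15 genes of the EGF receptor family, the ligands *Tgfa*, *Areg* and *Epgn* were higher, at 1.40, 2.71 and 2.18 (adjusted p = 0.0116, 0.0278 and 0.0452). *Areg* (adjusted p = 0.0514, range over all alternatives 3.47e-05 to 0.151) and *Epgn* (adjusted p = 0.0791, range 0.000517 to 0.247) were not called with the block. Of 18 Notch genes the receptor *Notch3* (1.62, adjusted p = 0.00694) and the ligand *Dll1* (1.82, adjusted p = 0.00994) were higher.

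Genes of S phase and mitosis were mostly higher in SCA-1+ cells without passing these thresholds. Of 34 such genes 28 were positive (median 0.52), 0 were called by edgeR or voom and 1 by DESeq2, and 4 had an unadjusted p under 0.05, all higher. Both SCA-1+ libraries lay above all bulge libraries for 20 genes and below them for 1, against 19.9% and 26.4% of all genes tested. Their sum was 995 to 1138 CPM in the bulge and 1278 to 1743 CPM in the SCA-1+ libraries. In tdT+ cells 5 of them were called higher and 0 lower. *Mki67*, the gene of the proliferation marker KI67, had 146, 96 and 127 CPM in the bulge and 205 and 256 CPM in the SCA-1+ libraries, which did not overlap (log2 fold change 0.91, SE 0.32, adjusted p = 0.131). The CDK inhibitor *Cdkn1a* was called, with 106, 79.8 and 97.3 CPM and 285 and 257 CPM (log2 fold change 1.52, SE 0.24, adjusted p = 0.0104). Of 25 immediate early genes, which respond to tissue dissociation, *Ier5* (1.71, adjusted p = 0.00837) and *Klf2* (1.10, adjusted p = 0.0359) were higher, *Fos* was at -0.52, adjusted p = 0.355, and the median was -0.25. With the block *Klf2* no longer passed both thresholds.

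Of 24 cytokine and chemokine genes tested 22 were positive (median 1.96), and 8 were called higher and 1 lower (0 and 0 without SCA-1+ replicate 1, 3 and 1 without bulge replicate 3). The alarmin *Il33* had 17.2, 11.7 and 10.6 CPM in the bulge and 198 and 165 CPM in the SCA-1+ libraries (log2 fold change 3.79, SE 0.56, adjusted p = 0.00837). The interleukin 1 antagonist *Il1rn* had 12.1, 9.17 and 4.12 CPM and 77.4 and 63 CPM (log2 fold change 3.05, SE 0.45, adjusted p = 0.00837), and *Tnf* had 0.682, 0.449 and 0.268 CPM and 7.5 and 5.91 CPM (log2 fold change 3.83, SE 0.57, adjusted p = 0.00837). The gene that fell was *Cxcl14*, a chemokine made constitutively in skin epithelium, from 3218, 3014 and 3053 CPM to 713 and 989.5 CPM (log2 fold change -1.86, SE 0.27, adjusted p = 0.00721). All 22 interferon response genes were positive (median 1.96), but 1, *Gbp2* (2.52, adjusted p = 0.0287), was called by edgeR, against 4 with the replicate block, 8 by DESeq2, 9 at an unadjusted p under 0.05, and 0 without SCA-1+ replicate 1, SCA-1+ replicate 2, bulge replicate 1 or bulge replicate 3. Of 16 genes of MHC class I and antigen processing 15 were positive (median 0.70) and 13 were higher at an unadjusted p under 0.05, and 1, the transactivator *Nlrc5*, was called (1.36, adjusted p = 0.0217). The lactate exporter *Slc16a3* was called among 19 glycolysis genes (3.21, adjusted p = 0.0122) and the calcium channel *Trpv4*, lower, among 17 genes for channels and retinoid binding (-1.36, adjusted p = 0.0153). Over all genes tested, 3.29% were called higher and 1.45% lower, and single calls in lists of this size are not read as results about the lists. Of 22 cholesterol synthesis genes 0 were called by edgeR, DESeq2 or voom and 1 had an unadjusted p under 0.05.

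Among the lists of markers of cells other than keratinocytes, the endothelial list had the highest median. Its 11 markers summed to 50.4, 153 and 59.9 CPM in the bulge and to 3052 and 3416 CPM in the SCA-1+ libraries. All 11 were positive (median 5.18), 10 did not overlap and 10 had an unadjusted p under 0.05, but 4 were called. Over all genes tested, the SCA-1+ libraries lay above the bulge without overlap for 19.9%, and 3.29% were called higher. *Plvap* (chromosome 8, 71497765 to 71511752), which forms the diaphragms of fenestrated endothelium, had 7.58, 25.7 and 9.59 CPM and 847 and 1075 CPM (log2 fold change 6.07, SE 1.505, adjusted p = 0.0444). *Flt1*, a VEGF receptor, had 2.17, 3.41 and 1.61 CPM and 198 and 215 CPM (log2 fold change 6.43, SE 1.32, adjusted p = 0.0233). *Tek*, the angiopoietin receptor, and *Egfl7* were at 5.08, adjusted p = 0.0264 and 3.85, adjusted p = 0.0327. *Pecam1* and *Cdh5*, named after their values were seen, had 688 and 728 CPM and 364 and 421 CPM in the SCA-1+ libraries without being called (adjusted p = 0.0612 and 0.0663), and *Cldn5* stood at 7.94 and 8.59 CPM with no difference beyond its error. The number called was 10 in the fit of the 5 tdTneg libraries alone, 9 and 10 without tdT+ bulge replicates 2 and 3, 3 without bulge replicate 2, and 0 without SCA-1+ replicate 1, SCA-1+ replicate 2, bulge replicate 1 or bulge replicate 3. In tdT+ SCA-1+ libraries the sum was 55.5 to 109 CPM, and in tdT+ bulge libraries 8.21 to 820 CPM, the highest being the library labelled tdT+ bulge replicate 2. The median of these markers in the tdT+ comparison was -1.71 with that library and 1.11 without it. *Cd34* and *Ly6a* are themselves transcribed in endothelium, and the part of endothelial RNA in any difference given here was not tested. In bulk samples fewer cells of a type and less RNA per cell cannot be told apart.

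**Figure D3:**
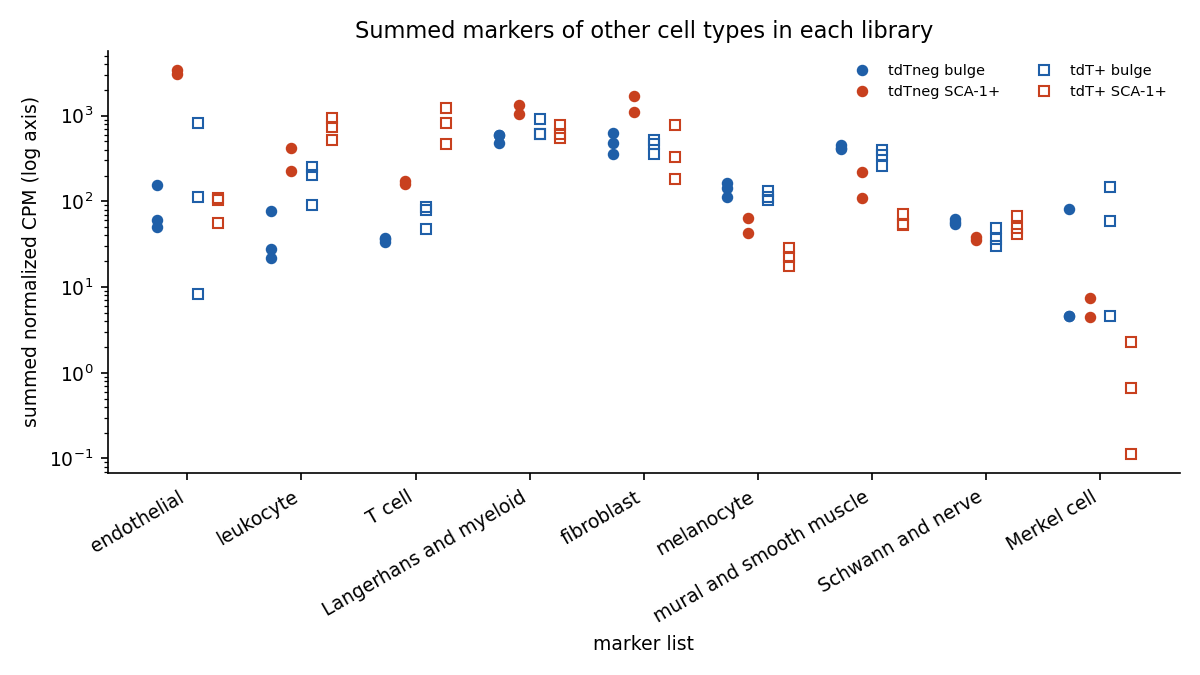
Summed normalized CPM (log axis) of 9 lists of markers of other cell types, with 1 point per library for the tdTneg (filled) and tdT+ (open) groups. The endothelial sum is 3052 and 3416 CPM in tdTneg SCA-1+ libraries and at most 820 CPM in the other 9.

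The 11 general leukocyte markers summed to 21.7 to 77.9 CPM in the bulge and 228 to 422 CPM in the SCA-1+ libraries, all were positive (median 2.97) and 5 were called (10 without bulge replicate 2, 1 without SCA-1+ replicate 1, and 2 without SCA-1+ replicate 2, bulge replicate 1 or bulge replicate 3). *Laptm5* had 2.19, 8.93 and 0.805 CPM and 27.4 and 104 CPM (log2 fold change 4.05, SE 0.91, adjusted p = 0.0317), replicate 2 being the higher of the SCA-1+ libraries. The 12 T cell markers summed to 33.5 to 37.0 CPM and 157 to 172 CPM, with 8 called (1 without SCA-1+ replicate 1 and 3 without bulge replicate 3). *Cd3e* had 0.661, 0.317 and 0.829 CPM and 9.78 and 12.6 CPM (log2 fold change 4.199, SE 0.50, adjusted p = 0.00471), and *Trdc*, the constant region of the delta chain, 1.55, 0.159 and 1.07 CPM and 19.9 and 18.1 CPM (log2 fold change 4.34, SE 0.71, adjusted p = 0.011). *Cd4* was at or under 1 CPM in all 5 libraries, with 0.227, 0.661 and 0.293 CPM and 0.949 and 0.126 CPM (log2 fold change 0.46, SE 1.19, adjusted p = 0.874). The MHC class II genes *H2-Aa*, *H2-Eb1*, *H2-Ab1* and *Cd74*, which mark Langerhans cells among others, were higher by 3.80, 4.004, 3.45 and 3.998 (adjusted p = 0.0112, 0.0127, 0.0187 and 0.017). *Itgam*, a chain of a myeloid integrin, had 1.39 and 15.5 CPM in the SCA-1+ libraries, high in replicate 2 alone (log2 fold change 5.76, SE 1.27, adjusted p = 0.0295). *Cd207*, the gene of langerin, had 1.49, 0.952 and 0.927 CPM and 21.4 and 9.34 CPM and was not called (adjusted p = 0.0874). The part of these cells in the cytokine and MHC values was not tested.

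Of the other lists, fibroblast markers summed to 353 to 627 CPM and 1107 to 1710 CPM, with *Vim* (3.84, adjusted p = 0.0302) and *Pi16* (4.57, adjusted p = 0.0436) called. *Vim* is transcribed in endothelium and leukocytes as well, and the collagen genes *Col1a1* and *Col3a1* were at 1.48, adjusted p = 0.49 and 0.83, adjusted p = 0.737. Melanocyte markers were lower in sum, 112 to 166 CPM against 42.5 to 63.8 CPM, with *Mitf* called (-1.70, adjusted p = 0.0429), as were mural markers, 409 to 449 CPM against 109 to 220 CPM, with *Cspg4* called (-1.46, adjusted p = 0.0287). With the replicate block *Pi16* (adjusted p = 0.0864, range over all alternatives 4.16e-05 to 0.185), *Mitf* (adjusted p = 0.0849, range 0.000958 to 0.286) and *Cspg4* (adjusted p = 0.0514, range 0.000393 to 0.233) were not called, which left 0 calls in the melanocyte and mural lists by edgeR. Of 7 nerve markers and 3 Merkel cell markers tested 0 were called by edgeR and 1 of each direction, both nerve markers, had an unadjusted p under 0.05, DESeq2 and voom each calling 1 nerve marker. *Krt8* was high in bulge replicate 2 alone (2.23, 25.1 and 2.66 CPM).

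The largest rises were in genes with low levels in bulge libraries. *Selp* (ENSMUSG00000026580, chromosome 1, 164115264 to 164150026), which encodes P-selectin, the adhesion molecule of activated endothelium and platelets, had 1.8, 1.93 and 2.71 CPM in the bulge and 1350 and 1319 CPM in the SCA-1+ libraries (log2 fold change 9.28, SE 2.20, adjusted p = 0.0385). *Aqp1*, a water channel of endothelium, had 1.61, 22.4 and 7.76 CPM and 2294 and 2256 CPM (log2 fold change 7.75, SE 1.88, adjusted p = 0.0411). *Ackr1*, the chemokine-binding protein of venules, had 0.537, 0.0529 and 0.951 CPM and 197 and 221 CPM (log2 fold change 8.64, SE 2.19, adjusted p = 0.0486). Each of these genes stood at a similar level in both SCA-1+ libraries and far lower in every bulge library. The endothelial transcription factor *Sox17* (8.75, adjusted p = 0.00845) and the cytokine gene *Il6* (7.77, adjusted p = 0.0496) were among the 12, with *Gm16548*, *C1qtnf9*, *Cytl1*, *Rasgef1a*, *Lhx6*, *Gpr1* and *Csf2rb2*. Their direction in tdT+ cells rested on 1 library. With all libraries the 12 were negative there, from -2.42 to -1.06, none of them called (adjusted p = 0.250 to 0.582). *Selp* had 1.22, 428 and 1.21 CPM in the tdT+ bulge and 33.1, 51.3 and 52.1 CPM in the tdT+ SCA-1+ libraries, the high bulge value being in the library labelled tdT+ bulge replicate 2. That library also entered the spread behind the SE and p-values given above. Without that library 11 of the 12 were positive in tdT+ cells (median 2.83), *Csf2rb2* being the exception (-0.04), and 5 were called higher there, namely *Selp* (5.22), *Gm16548*, *C1qtnf9*, *Cytl1* and *Il6*. *Gm16548*, *Cytl1*, *Selp*, *Ackr1*, *Il6* and *Gpr1* were not called with the replicate block, with adjusted p-values from 0.0528 to 0.0895, where the ranges over all alternatives were 0.000283 to 0.149 for *Cytl1* and 0.00026 to 0.203 for *Il6*.

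The largest falls were smaller, and most were also called in tdT+ cells. *Il31ra*, a chain of the interleukin 31 receptor, had 424, 190.3 and 469 CPM in the bulge and 58.7 and 54 CPM in the SCA-1+ libraries (log2 fold change -2.68, SE 0.47, adjusted p = 0.0133). *Pdzrn4* had 110, 69.8 and 132 CPM and 16.4 and 15.8 CPM (log2 fold change -2.69, SE 0.38, adjusted p = 0.00694), and *Gfra2*, the neurturin receptor, 64.8, 38.9 and 64.5 CPM and 9.34 and 7.12 CPM (log2 fold change -2.77, SE 0.58, adjusted p = 0.0246). In each of them bulge replicate 2 was the lowest bulge library and the groups did not overlap. *Angptl7* and the matrix gene *Vit* fell by 3.17 and 3.01 on the log2 scale, and *Dpysl4*, *Krtap17-1*, *Scrg1*, *Gprasp2*, *Wfdc3*, *Camk4* and *Tmem121* complete the 12. All 12 were negative in tdT+ cells, and 11 of them, *Tmem121* being the exception (-1.34, adjusted p = 0.0611), were called lower there, from -2.52 to -6.16. The number was 11 without the library labelled tdT+ bulge replicate 2 as well. *Dpysl4* (adjusted p = 0.0597, range over all alternatives 2.62e-05 to 0.304) and *Camk4* (adjusted p = 0.087, range 4.72e-05 to 0.339) were not called with the replicate block.

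The same comparison in tdT+ cells shares no library with this one, but libraries of the same replicate number were taken as sorted from the same mice. Agreement between the comparisons is therefore not a repeat in other mice. The tdT+ comparison called 591 genes higher (2.91% of those tested) and 1124 lower (5.54%). Without the library labelled tdT+ bulge replicate 2 it called 670 (3.29%) and 983 (4.82%). Of the 295 genes lower in tdTneg SCA-1+ cells, 291 (98.6%) were negative in tdT+ cells and 220 (74.6%) were called lower there, and without that library 290 and 224. The bulge side of the comparison thus kept its direction in tdT+ cells for nearly all genes, with or without it. Of the 668 genes that were higher, 512 (76.6%) were positive in tdT+ cells, where 46.5% of all genes tested were positive, and 278 (41.6%) were called higher while 19 were called lower. Without that library 580 (86.8%) were positive, 298 (44.6%) were called higher and 12 lower. The genes of the largest rises moved most when it was left out. Of 63 called genes over 5, 42 (66.7%) were negative in tdT+ cells with it and 12 (19.0%) without it, and of 303 over 3, 95 (31.4%) with it and 39 (12.9%) without it.

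A test of the difference between the comparisons, the log2 fold change in tdTneg minus that in tdT+ cells, called 79 genes (0.389%), 77 positive and 2 negative, with 2516 at an unadjusted p under 0.05. *Nrp2* (chromosome 1, 62703285 to 62818695), a coreceptor for semaphorins and VEGF, had 26.7, 34 and 25.8 CPM in tdTneg bulge and 189 and 207 CPM in tdTneg SCA-1+ libraries (log2 fold change 2.78, SE 0.32, adjusted p = 0.00471) and was lower in tdT+ SCA-1+ cells (-1.41), a difference of 4.19 (SE 0.43, adjusted p = 0.00855). *Arhgap31*, which inactivates Cdc42 and Rac, rose from 22.4, 29.4 and 21.1 CPM to 148 and 132 CPM in tdTneg cells (log2 fold change 2.53, SE 0.34, adjusted p = 0.00681) against -2.23 in tdT+ cells. *Fzd4* and *Itga5*, given above, were also higher in tdTneg and at -2.27 and -0.78 in tdT+ cells, with adjusted p-values of the difference of 0.00988 and 0.0202. *Cd34* was lower in both and by less in tdTneg cells, -1.32 against -4.63 in tdT+ cells, a difference of 3.31 (SE 0.42, adjusted p = 0.0132). It had 319.6 and 383 CPM in the tdTneg SCA-1+ libraries and 24.3, 35.7 and 22.35 CPM in the tdT+ SCA-1+ libraries. Its protein defined the sort, so these values bear on the labels and are no result between the groups. Of the 11 endothelial markers, 0 passed the edgeR test of the difference, with or without the library labelled tdT+ bulge replicate 2. For the 4 called in the tdTneg comparison the differences were nonetheless large. Without that library they were 6.03 (SE 1.21) for *Flt1*, 6.08 (SE 1.29) for *Tek*, 5.27 (SE 1.27) for *Plvap* and 4.97 (SE 0.965) for *Egfl7*. Without that library 63 genes were called for the difference (0.309%), 62 positive and 1 negative, of which 51 were among the 79. *Nrp2*, *Arhgap31*, *Fzd4*, *Itga5* and *Cd34* were called in both, as was *Sox17* among the largest rises, though not with the replicate block (adjusted p = 0.0689). *Selp* and *Rasgef1a* were called without that library and not with it, at 4.06 and 6.72 (adjusted p = 0.00466 and 0.0132, against 0.116 and 0.059). The number of genes was 1 without SCA-1+ replicate 2, 20 without SCA-1+ replicate 1, 23 and 31 without bulge replicates 1 and 3, and 376 without tdT+ bulge replicate 3.

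**Figure D4:**
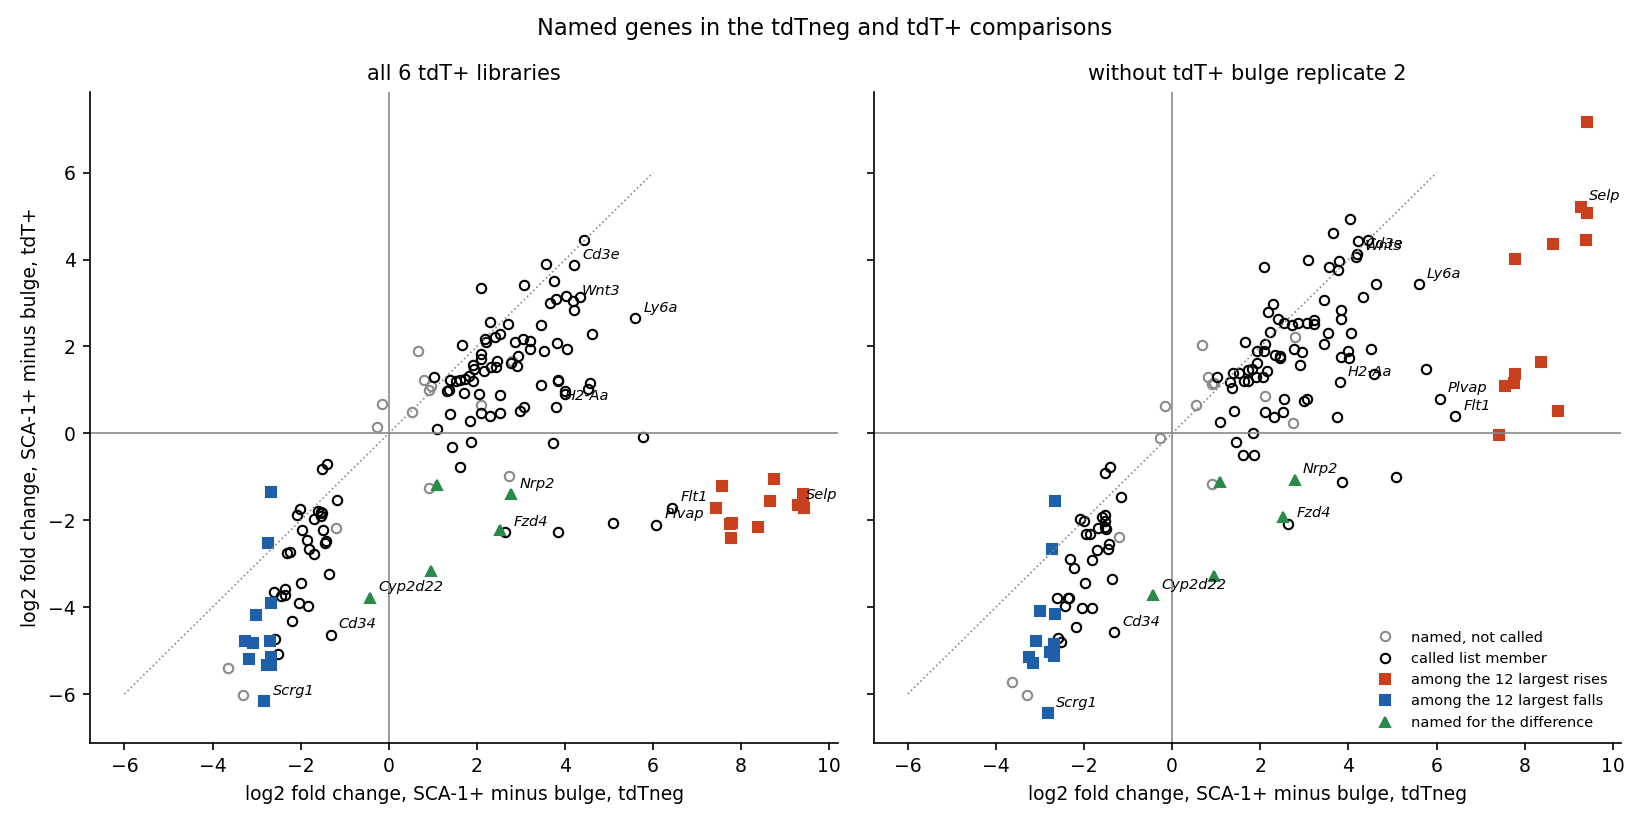
Log2 fold change of SCA-1+ minus bulge in tdTneg (x axis) and tdT+ cells (y axis) for each named gene, with all tdT+ libraries (left) and without the library labelled tdT+ bulge replicate 2 (right); the dotted lines mark equal values. The 12 largest falls lie in the lower left of both panels, and the 12 largest rises, at 7.42 to 9.42 on the x axis, lie below 0 on the y axis in the left panel while 11 of them lie above it in the right.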

How the data were processed

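RNA of FACS-sorted cells was sequenced in 11 libraries, of which 5 were compared. The deposited files hold raw counts per Ensembl gene, which the authors made with STAR (mm10, Ensembl annotation) and featureCounts; strand setting and design formula were not given in the sources used here. The submitters' processing notes name DESeq2 1.18.1. The row outside the Ensembl genes (0.000254% to 0.000489% of the counts in the tdTneg libraries) was left out. Groups came from the titles.

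All 11 libraries were fitted with 1 mean per group in edgeR 4.0.16 (R 4.3.3; TMM, filterByExpr, glmQLFit, glmQLFTest), since 1 group has 2 libraries. All tests are two-sided. An exact permutation test of 2 against 3 libraries cannot go below p = 0.1 and was not used. P-values rest on a spread estimated over all 11 libraries, the library labelled tdT+ bulge replicate 2 included. Variation among the tdT+ pools of mice thus enters the SE and p-values of the tdTneg comparison. Depth was 23666873 to 46542177 counts in the tdTneg libraries, and the common biological coefficient of variation was 0.608. The fit was tested on simulated data, in which changed genes were missed at every fold size simulated, the largest included, and most often at the smallest. The smallest fold equals the fold threshold of a call, so misses there follow largely from that threshold. Alternatives were DESeq2 1.42.0, RLE size factors, filters of 1 count in any library or 10 in each tdTneg library, no fold threshold, the 5 tdTneg libraries alone, limma 3.58.1 voom with library weights, the replicate number as a block, and omission of each library. Figures used matplotlib in Python.

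Libraries with the same replicate number were taken as paired, since the study describes replicates 1 to 3 as isolates of 2 mice each from which the 4 populations were sorted, and the labels give the same age for each number. Deviations of same-numbered tdTneg libraries correlated at 0.18 and 0.13, and over all 15 same-numbered pairs at a median of 0.08 (-0.415 to 0.589, against -0.02 for 30 other pairs). These deviations are from group means, which makes those of the tdTneg SCA-1+ libraries mirror images of each other. The values therefore cannot decide on the pairing. The main fit has no block, and the blocked value is given where it changes the call of a named gene.

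Members and lists were chosen with earlier results of these data known. Named are the sort genes, the 12 largest rises and 12 largest falls among called genes (at least 5 CPM in the higher group, groups without overlap), up to 6 called members of each list or else the member with the lowest p, defining genes of the lists, and the 5 genes with the lowest p of the difference between the tdTneg and tdT+ comparisons.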

Additional observations from a re-analysis of the deposited data

Results flagged for a closer look

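The effect of population (SCA-1+ minus bulge) differed between tdTneg and tdT+ cells for 79 genes in a test of that difference itself (edgeR, adjusted p under 0.05 and an absolute difference over 1 on the log2 scale). For the 5 genes with the lowest p the difference of log2 fold changes, tdTneg minus tdT+, was 3.36 (SE 0.27, adjusted p = 0.00468) for the cytochrome P450 gene *Cyp2d22*, 2.28 (SE 0.20, adjusted p = 0.00509) for *Hip1*, 4.76 (SE 0.47, adjusted p = 0.00855) for *Arhgap31*, 4.11 (SE 0.42, adjusted p = 0.00855) for *Lmcd1* and 4.19 (SE 0.43, adjusted p = 0.00855) for *Nrp2*. *Cyp2d22* had 39.9, 48.9 and 38.3 CPM in tdTneg bulge and 33.6 and 29.6 CPM in tdTneg SCA-1+ libraries, a log2 fold change of -0.42, against -3.78 in tdT+ cells. *Hip1*, a clathrin adaptor, had 71.7, 69.5 and 68.2 CPM and 141 and 156 CPM, a log2 fold change of 1.09, against -1.20 in tdT+ cells. *Lmcd1* had 18.2, 16.4 and 24.4 CPM and 35.7 and 40.5 CPM, a log2 fold change of 0.95 that was not called, against -3.16 in tdT+ cells. With the replicate block it was 1.16 and called (adjusted p = 0.0305, range over all alternatives 0.00346 to 0.392). Without the library labelled tdT+ bulge replicate 2, in which the row outside the Ensembl genes stood near the tdTneg level, the 5 differences were 3.30, 2.20, 4.44, 4.22 and 3.84, all called. These genes were chosen for their difference, and the values describe it. Groups of 2 and 3 libraries were too small to test for single outlying libraries gene by gene, and libraries that stood apart in a named gene are only described.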

How the results depend on the processing

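With the replicate number as a block 811 genes were called, 597 higher and 214 lower, and 77 for the difference from tdT+ cells; of 136 named called genes the block lost 24, which kept their direction, and it added *Lmcd1*. Counts of calls moved by over 1.5 times with DESeq2 (2136 in all, 1294 higher, 842 lower, 825 for the difference, on 41302 genes), with voom and library weights (2710, 1784, 926 and 646) and with the 5 tdTneg libraries alone (1452, 1004 and 448). A filter of 1 count in any library gave 1011 higher genes and 568 for the difference, and at least 10 counts in each tdTneg library gave 209 for the difference. Omission of 1 library gave 55 to 1300 called genes, 53 to 930 higher, 2 to 370 lower and 1 to 376 for the difference. Of the 963 genes, 736 were also called with the replicate block, 826 with the 5 tdTneg libraries alone, 869 and 917 with the filters of 10 and 1 counts, 907 with RLE size factors, 908 by DESeq2 and 936 by voom. Of the 136 named called genes, 128 were lost without SCA-1+ replicate 1, 93 without bulge replicate 3, 69 without SCA-1+ replicate 2, 53 without bulge replicate 1 and 29 without bulge replicate 2; 0 changed direction. The log2 fold change of *Lor*, not called, was -0.464 without SCA-1+ replicate 1 and up to 5.61 over the fits that left out 1 library. For DESeq2, voom and the replicate block the cause was not tested; the filters and omissions change the genes or libraries in the fit. RLE size factors moved the median of all genes from -0.133 to -0.053. With 2 SCA-1+ libraries, the median half-width of the 95% interval was 1.05 on the log2 scale, so that a gene that was not called is not shown to be alike in both groups.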
